A study of Rattus norvegicus with 3 samples.

Results

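The 10 genes followed here in rat motor cortex are typical of the choroid plexus epithelium: Ttr, Enpp2, Kl, Folr1, Sostdc1, Mfrp, Kcne2, Kcnj13, Slc4a5 and Clic6. They are 10 of 30957 genes with a value, were picked by symbol, and each matched 1 gene ID. Their levels in these same libraries were known when they were chosen, so everything below on the size and order of their differences between animals is a description, and none of it was tested. The samples were motor cortex of 3 male Sprague-Dawley rats of a normal group that received no treatment, with a labelled time of 8 weeks and no statement whether that is an age. The animals are called 32, 39 and 68, after the numbers they were given. A single mRNA library was sequenced per animal, and each gene has a value in FPKM, the fragments of a gene scaled to its length and to all fragments of the library. No genotype, transgene or pooling of animals is given.

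The choroid plexus is a fringe of vascular tissue covered by epithelium that hangs into the ventricles of the brain and secretes cerebrospinal fluid. Its epithelium pumps sodium, chloride and bicarbonate towards the ventricle, with water following, and it delivers thyroid hormone carriers, folate and growth factors to the fluid. It is not a part of the cortex, so its genes are not among those that define the labelled tissue. In bulk tissue, fewer cells of a type and less RNA per cell cannot be told apart. Because each animal gave a single library, its biology, its dissection and its library preparation cannot be told apart either.

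All 10 genes were ordered the same way, lowest in animal 32, intermediate in animal 39 and highest in animal 68. Their median level was 0.304 FPKM in the first of these animals, 4.24 FPKM in the next and 55.1 FPKM in the last. In animal 32, 6 of the 10 were below 1 FPKM, and those 6 passed the filter on a mean of at least 1 FPKM only through the other animals. Without animal 68 the median over genes of the mean level over animals was 2.18 FPKM, against 20.1 FPKM with all 3. The defining genes of the labelled tissue were present in all animals: Slc17a7, the vesicular glutamate transporter of cortical excitatory neurons, was at 521, 537 and 495 FPKM in animals 32, 39 and 68.

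The depth behind these values was read from the values themselves, since FPKM steps are whole fragments. It came to 16553250 fragments in animal 32, 15462266 in animal 39 and 17664734 in animal 68. For each of the 10 genes, exactly 1 length, apart from its multiples, turned all 3 values into whole fragments, so the fragments behind each level are given below for the smallest such length. Intervals are exact 95% Poisson intervals on these fragments, or exact conditional binomial intervals for ratios of libraries. They describe counting error only, and take each fragment as an independent molecule. Fragments copied by PCR are not independent, so the intervals can be too narrow even for counting error. No gene had the same value above 0 in any pair of libraries.

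RefSeq promoter windows on the rat build GRCr8, from 250 bases before to 50 bases after the start, were found for 5 of the 10 genes: Ttr, Kl, Kcnj13, Slc4a5 and Mfrp. Those of Ttr, the member with the highest mean, Mfrp, the member with the lowest value in animal 32, and Kcnj13, the window holding the most matches, are printed 5′ to 3′ because the 3 genes had the same order of animals. Capitals mark matches on either strand to TAATCC, to the CCAAT box, to TATAAA or to the E-box CAGCTG, and no match overlapped another. The Ttr window is chr18:12218508-12218807 on the plus strand, the Mfrp window chr8:53342284-53342583 on the plus strand and the Kcnj13 window chr9:95518937-95519236 on the minus strand. In Rnor_6.0, Ttr is on the minus strand, whereas Mfrp and Kcnj13 have the same strand in both builds. Whether the Ttr window belongs to the gene model behind the Ttr values was not tested. The only match in the Ttr window lies after the start, from base 17.
Ttr: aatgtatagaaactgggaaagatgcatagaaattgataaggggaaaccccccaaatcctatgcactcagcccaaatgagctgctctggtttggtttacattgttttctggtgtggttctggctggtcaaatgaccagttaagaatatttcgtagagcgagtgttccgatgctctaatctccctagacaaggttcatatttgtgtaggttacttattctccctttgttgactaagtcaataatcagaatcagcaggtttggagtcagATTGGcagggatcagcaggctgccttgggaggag
Mfrp: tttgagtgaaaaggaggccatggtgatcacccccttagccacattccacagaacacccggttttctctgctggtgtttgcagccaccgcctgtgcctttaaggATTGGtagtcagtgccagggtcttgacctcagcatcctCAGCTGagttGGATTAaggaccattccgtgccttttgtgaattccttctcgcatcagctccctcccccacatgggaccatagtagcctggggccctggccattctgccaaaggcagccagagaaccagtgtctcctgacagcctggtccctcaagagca
Kcnj13: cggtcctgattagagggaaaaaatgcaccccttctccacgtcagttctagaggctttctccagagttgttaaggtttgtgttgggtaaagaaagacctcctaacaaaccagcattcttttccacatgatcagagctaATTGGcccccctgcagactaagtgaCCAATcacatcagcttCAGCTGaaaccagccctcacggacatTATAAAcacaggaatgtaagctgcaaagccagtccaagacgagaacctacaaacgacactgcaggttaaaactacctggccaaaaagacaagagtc
The CCAAT pentamer, known as the CCAAT box, was present in 4 of the 5 windows and in 37.5% of all 33469 rat windows of this length. TAATCC, a sequence that homeodomain proteins of the Otx type can bind, was present in 1 of 5, that of Mfrp, and in 7.17% of all windows. CAGCTG, an E-box, was present in 2 of 5, Mfrp and Kcnj13, and in 15.1% of all. TATAAA was present in 1 of 5, that of Kcnj13, and in 14.2% of all. The Kl window held none of the 4 motifs, and that of Slc4a5 held CCAAT 3 times. No motif was in all 5 windows, and a match or its absence in these letters says nothing about binding.

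The secreted proteins included the most abundant members. Ttr encodes transthyretin, the carrier of thyroxine and, through retinol-binding protein, of retinol in the cerebrospinal fluid. It lies at 18:15532963-15540177 on the minus strand of Rnor_6.0 and carries the identifier ENSRNOG00000016275. Ttr was at 8.36 FPKM in animal 32 from 97 fragments, at 615 FPKM in animal 39 from 6664 fragments and at 7264 FPKM in animal 68 from 89945 fragments. It thus went from rank 7325 among all genes in animal 32 to rank 46 in animal 39 and rank 8 in animal 68. The level in animal 39 was 73.5-fold that in animal 32 (interval 60.2 to 90.8), and animal 68 was 11.8-fold above animal 39 (11.5 to 12.1). Ttr made up 0.509% of all fragments of animal 68.

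Enpp2 (ENSRNOG00000004089, 7:94480396-94563001, minus strand) encodes autotaxin, a secreted lysophospholipase D that makes lysophosphatidic acid and is also made by oligodendrocytes. It was at 49.3 FPKM in animal 32 (2165 fragments), 71.9 FPKM in animal 39 (2947) and 633 FPKM in animal 68 (29648). Animal 68 stood apart, while the levels of animals 32 and 39 were 1.46-fold apart (interval 1.38 to 1.54). The ratio of animal 68 to animal 39 was 8.81 (8.48 to 9.15). Enpp2 was the most abundant of the 10 genes in animal 32 and the second, behind Ttr, in the others.

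Sostdc1 (ENSRNOG00000005770, 6:55812747-55817066, plus strand) encodes a secreted antagonist of bone morphogenetic proteins that also modulates Wnt signalling. It was at 0.0685 FPKM in animal 32, 4.29 FPKM in animal 39 and 57.5 FPKM in animal 68, from 2, 117 and 1790 fragments. The ratio of animal 39 to animal 32 was 62.6, with an interval from 17.0 to 523 that is wide because of the 2 fragments in animal 32. The ratio of animal 68 to animal 39, which rests on more fragments, was 13.4 (11.1 to 16.3).

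The next genes encode proteins of the cell surface. Kl (ENSRNOG00000001092, 12:943006-987551, plus strand) encodes klotho, the co-receptor for FGF23, whose shed ectodomain circulates in the cerebrospinal fluid. It was at 0.126 FPKM in animal 32 (8 fragments), 2.66 FPKM in animal 39 (158) and 58.0 FPKM in animal 68 (3933). Its steps were about equal in size, 21.1-fold from animal 32 to 39 (interval 10.5 to 49.8) and 21.8-fold from animal 39 to 68 (18.6 to 25.7).

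Folr1 (ENSRNOG00000019902, 1:166934460-166943592, minus strand) encodes folate receptor alpha, which moves folate from blood to cerebrospinal fluid and whose loss in humans causes cerebral folate deficiency. It was at 0.453 FPKM in animal 32 (6 fragments), 3.88 FPKM in animal 39 (48) and 39.8 FPKM in animal 68 (563). The intervals of the 3 levels did not overlap: the one in animal 32 ended at 0.986 FPKM and the one in animal 39 began at 2.86 FPKM. Folr1 had the fewest fragments of the 10 genes in animals 39 and 68, and its length of 800 bases was the second shortest.

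Mfrp (ENSRNOG00000039107, 8:48437918-48443421, plus strand) encodes membrane frizzled-related protein, known from the retinal pigment epithelium and from human nanophthalmos. It was at 0.0674 FPKM in animal 32 (4 fragments), 4.31 FPKM in animal 39 (239) and 67.1 FPKM in animal 68 (4252). Mfrp thus had the lowest value of the 10 genes in animal 32 and the third highest in animal 68. In animal 32 its interval, 0.0184 to 0.172 FPKM, overlapped that of Sostdc1, 0.0083 to 0.248 FPKM, among others. Its place there is therefore within counting error. The ratio of animal 68 to animal 32 was 996, with an interval from 389 to 3658, and that of animal 68 to animal 39 was 15.6 (13.7 to 17.8).

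The remaining 4 members encode channels or transporters of ions. Kcne2 (ENSRNOG00000029811, 11:32440237-32447259, plus strand) encodes an accessory subunit that in mouse choroid plexus assembles with the potassium channels Kcnq1 and Kcna3. It was at 2.92 FPKM in animal 32 (83 fragments), 4.18 FPKM in animal 39 (111) and 24.96 FPKM in animal 68 (757). Kcne2 differed least between animals: animal 39 was 1.43-fold above animal 32 (interval 1.07 to 1.93) and animal 68 was 5.97-fold above animal 39 (4.89 to 7.35).

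Kcnj13 (ENSRNOG00000016057, 9:94487224-94495333, minus strand) encodes the inward rectifier potassium channel Kir7.1 of the apical membrane of choroid plexus and retinal pigment epithelium. It was at 1.63 FPKM in animal 32 (34 fragments), 5.35 FPKM in animal 39 (104) and 52.7 FPKM in animal 68 (1171). The step from animal 32 to 39 was 3.27-fold (interval 2.20 to 4.98) and that from animal 39 to 68 was 9.86-fold (8.06 to 12.2). Kcnj13 lies inside Gigyf2, which is on the other strand and was at 14.5, 14.2 and 15.9 FPKM in animals 32, 39 and 68. Strandedness is not given in the sources used here, so fragments of the shared stretch cannot be told apart.

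Slc4a5 (ENSRNOG00000010378, 4:114918488-115002300, plus strand) encodes NBCe2, the electrogenic sodium bicarbonate cotransporter of the apical membrane. It was at 0.155 FPKM in animal 32 (10 fragments), 1.51 FPKM in animal 39 (91) and 37.6 FPKM in animal 68 (2581). Of the 10 genes it had the lowest level in animal 39 and the largest ratio of animal 68 to animal 39, 24.8 (interval 20.1 to 30.9). Clic6 (ENSRNOG00000026870, 11:32655616-32699382, plus strand), of the chloride intracellular channel family, was at 0.102 FPKM in animal 32 (9 fragments), 2.95 FPKM in animal 39 (244) and 51.0 FPKM in animal 68 (4819). The ratio of animal 68 to animal 39 was 17.3 (15.2 to 19.7), between those of Mfrp and Kl.

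**Figure D1:**
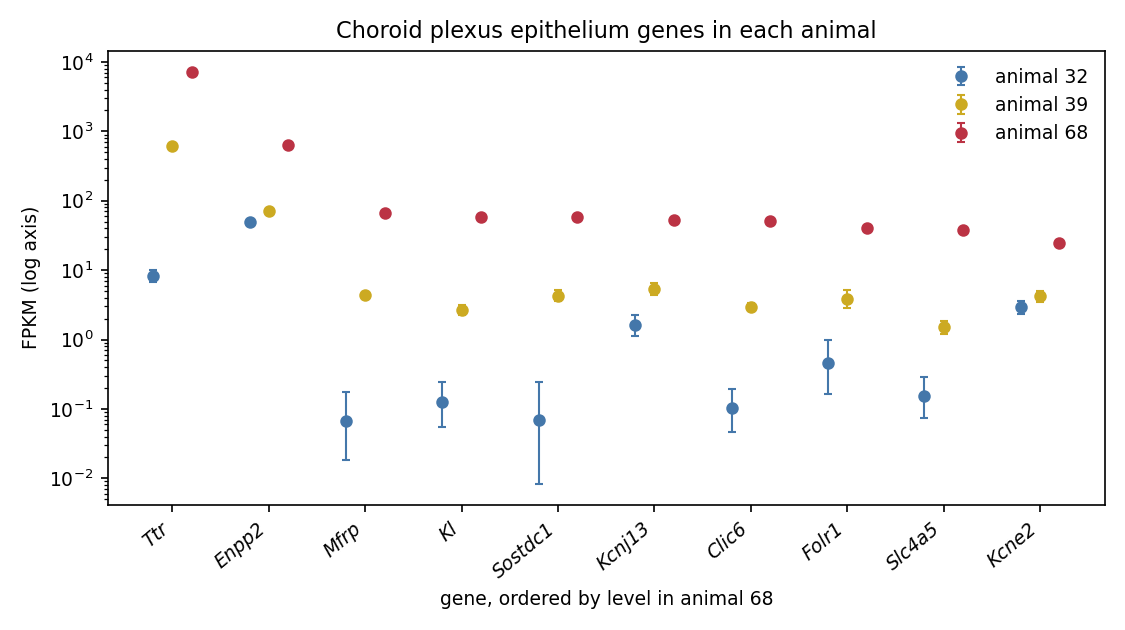
Level of each of the 10 genes in FPKM on a log axis in animals 32, 39 and 68, 1 library each, with exact 95% Poisson intervals as bars. In each gene animal 68 is the highest. In Ttr, Sostdc1 and Mfrp the value of animal 39 is more than 60-fold that of animal 32. For Sostdc1 and Mfrp this rests on 2 and 4 fragments in animal 32, with intervals of 17.0 to 523 and 24.7 to 237. In Enpp2 and Kcne2 animals 32 and 39 lie close together.

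Differences between animals were then counted on the log2(FPKM + 0.1) scale and set beside all 13378 genes that passed the filter. The background shares are printed for scale and nothing is read from them, because the genes were chosen with these differences known. Between animals 32 and 39, 8 of the 10 genes were at least 2-fold higher in animal 39, where 2.59% of all genes were, and 5 were at least 10-fold higher, where 0.0598% of all genes, 8 genes, were. The 2 members below 2-fold were Enpp2 and Kcne2. Between animals 39 and 68, all 10 genes were at least 2-fold higher in animal 68 (4.18% of all genes) and 7 were at least 10-fold higher (0.194% of all genes, 26 genes). Between animals 32 and 68, all 10 were at least 2-fold higher in animal 68 (9.77% of all genes), 9 were at least 10-fold higher (0.486% of all genes, 65 genes) and 0 were at least 2-fold lower (3.05% of all genes). The order of 32 below 39 below 68, shown by all 10, was shown by 32.9% of all genes. Of all genes at least 2-fold apart between animals 32 and 68, 76.2% were higher in animal 68, and with quantile scaling 57.0% were. For animal 39 over 32 these shares were 82.4% and 65.5%, and for animal 68 over 39 they were 68.0% and 52.1%.

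The median difference of the 10 genes was 3.23 from animal 32 to 39, 3.64 from animal 39 to 68 and 7.60 from animal 32 to 68 on the log2 scale, where the medians over all genes were 0.04, 0.03 and 0.07. The members differed more from each other in the first step than in the second. Differences from animal 32 to 39 ran from 0.50 in Kcne2 to 6.18 in Ttr, and those from animal 39 to 68 from 2.55 in Kcne2 to 4.55 in Slc4a5. After the level in animal 32 was subtracted from both, animal 68 exceeded animal 39 by 11.5-fold in Folr1 to 27.6-fold in Slc4a5. On this measure Enpp2, at 25.9-fold, and Kcne2, at 17.5-fold, fell within the range of the other 8 genes. The Kcne2 value rests on a small step, since its intervals in animals 32 and 39 overlapped (2.33 to 3.62 and 3.44 to 5.035 FPKM). No interval was computed for this measure, and whether the level of animal 32 is a baseline shared by the other animals was not tested.

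**Figure D2:**
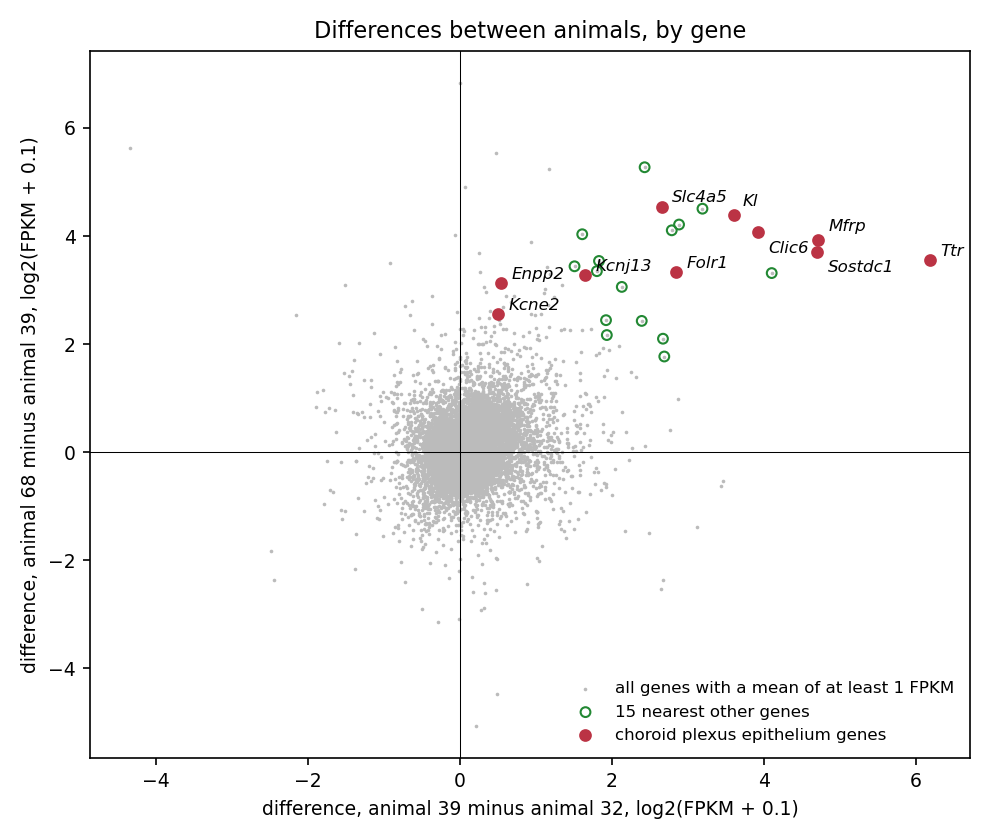
Difference from animal 32 to 39 (horizontal) against difference from animal 39 to 68 (vertical), both in log2(FPKM + 0.1), for all 13378 genes past the filter, the 10 choroid plexus epithelium genes and the 15 other genes nearest to their median. The 10 genes span 0.50 to 6.18 horizontally and 2.55 to 4.55 vertically.

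The summed level of the 10 genes was 63.2 FPKM in animal 32, 716 FPKM in animal 39 and 8285 FPKM in animal 68, or 0.0146%, 0.0693% and 0.789% of all fragments. What made up this sum changed between animals 32 and 39 more than between 39 and 68. Of the sums in animals 32, 39 and 68, Enpp2 took 78.0%, 10.04% and 7.64%, and Ttr took 13.2%, 85.9% and 87.7%. Among the other 8 genes, Kcne2 and Kcnj13 took 52.8% and 29.6% of the sum in animal 32. In animal 39 they took 14.3% and 18.4%, and in animal 68 they took 6.42% and 13.6%. Mfrp went the other way, from 1.22% in animal 32 to 14.8% in animal 39 and 17.3% in animal 68, and Kl from 2.28% to 9.13% and 14.9%.

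**Figure D3:**
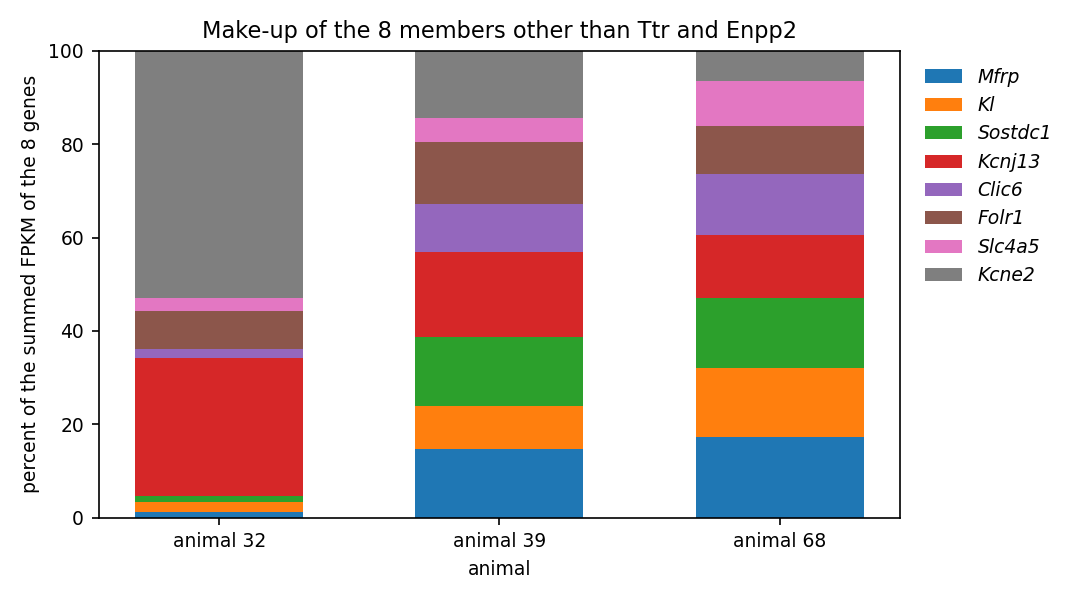
Percent of the summed FPKM of the 8 genes other than Ttr and Enpp2 taken by each gene, as stacked bars for animals 32, 39 and 68. Kcne2 takes 52.8% in animal 32 and 6.42% in animal 68, while no gene exceeds 18.4% in animals 39 and 68.

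By mean log2 level, which is per length and so compares genes, the order was Ttr, Enpp2, Kcnj13, Kcne2, Folr1, Mfrp, Sostdc1, Kl, Clic6 and Slc4a5. Of the 9 neighbouring pairs in this order, 1 differed by more than the SD over animals of its log2 ratio. That pair was Enpp2 over Kcnj13, with a mean log2 ratio of 4.05 and an SD of 0.68 (n = 3). Ttr was above Enpp2 in animals 39 and 68 and below it in animal 32, so their log2 ratio of 1.36 came with an SD of 3.39. The steadiest pair was Mfrp and Sostdc1, whose log2 ratio was -0.01 in animal 32, 0.01 in animal 39 and 0.22 in animal 68. In animal 32 both were below the pseudocount of 0.1, which draws their ratio there towards 0.

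Other genes described for this epithelium were largely ordered like the 10. From a list of 40 symbols, 39 were found and 35 passed the filter. Of these 35, 31 were in the order of the 10 genes (32.9% of all genes). At least 2-fold higher in animal 68 than in animal 32 were 31 (9.77% of all genes), 17 of them at least 10-fold (0.486%). At least 2-fold lower were 0 (3.05%). From animal 32 to 39, 13 were at least 2-fold higher (2.59% of all genes). The median log2 difference of that step over the 35 was 0.61, against 3.23 for the 10 genes. Nothing is read from these counts, because members and list were chosen with earlier results of these data known. The median of the list was 1.68 FPKM in animal 32, 2.64 FPKM in animal 39 and 15.7 FPKM in animal 68. Aqp1, the apical water channel, was at 0.807, 1.63 and 25.6 FPKM in animals 32, 39 and 68. Igfbp2, an insulin-like growth factor binding protein, was at 26.4, 41.1 and 155 FPKM. Mdk, the heparin-binding growth factor midkine, was at 11.98, 30.4 and 147 FPKM. Htr2c, the serotonin receptor that is strongly expressed in this epithelium, was at 2.69, 4.14 and 31.2 FPKM. Members of the list did not all differ: Slc22a8, an organic anion transporter, was at 8.74, 10.8 and 13.4 FPKM, and Cldn3, a tight junction claudin, was below 1 FPKM in all 3 animals.

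The wider machinery of fluid secretion, much of which neurons and glia also use, was counted in the same way. For scale here and in the lists that follow, 9.77% of all genes were at least 2-fold higher in animal 68 than in animal 32 and 3.05% lower. Of 20 such genes past the filter, 10 were at least 2-fold higher in animal 68 than in animal 32 and 1 was lower, with 9 to 11 higher and 1 lower over the scalings tried. The chloride bicarbonate exchanger Slc4a2 was at 7.36, 9.73 and 40.8 FPKM in animals 32, 39 and 68, and the cotransporter Slc12a2 (NKCC1) at 18.2, 22.2 and 44.7 FPKM. Of 7 genes past the filter in the bicarbonate transporter family of Slc4a5, 3 were at least 2-fold higher in animal 68 (Slc4a2, Slc4a4 and Slc4a7) and 1 was lower (Slc4a11).

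Genes that act with the members were counted next, beside 9.77% of all genes higher and 3.05% lower. For transthyretin, 4 of 13 genes of thyroid hormone and retinol transport were at least 2-fold higher in animal 68 than in animal 32 and 1 was lower. Stra6, the receptor for retinol-binding protein, was at 1.64, 1.64 and 5.14 FPKM in animals 32, 39 and 68. For klotho, 2 of 5 genes were higher and 0 lower: the receptors Fgfr1, at 17.6, 35.2 and 49.3 FPKM, and Fgfr2, at 18.3, 24.9 and 53.6 FPKM. The related co-receptor Klb was listed at 0 in all animals. For Folr1, 3 of 12 folate genes were at least 2-fold higher in animal 68, a count that ran from 0 to 3 over the scalings. The reduced folate carrier Slc19a1, at 3.35, 3.95 and 6.94 FPKM, was among them, and the proton-coupled folate transporter Slc46a1, at 2.31, 2.21 and 2.71 FPKM, was not.

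Among the relatives of the channels, 2 of 9 partner channels and KCNE subunits of Kcne2 were at least 2-fold higher in animal 68, a count of 0 to 2 over the scalings. Over all genes 9.77% were higher and 3.05% lower. Kcnq1, the partner in mouse choroid plexus, was below the filter at 0.0129, 0.0550 and 0.915 FPKM in animals 32, 39 and 68. Of 11 other inward rectifiers past the filter, 2 were at least 2-fold higher in animal 68, the glial Kcnj10 and Kcnj16, and 4 were lower, a split that ran from 1 to 2 higher and from 2 to 5 lower over the scalings. Kcnj9, a subunit of neuronal G protein-gated channels, was at 59.8, 38.7 and 20.4 FPKM. Of 4 other CLIC proteins past the filter, 1 was higher, Clic4, at 19.9, 28.0 and 41.5 FPKM, and under some scalings 0 were.

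Among 16 BMP and Wnt pathway genes related to Sostdc1, 5 were at least 2-fold higher in animal 68 (4 to 6 over the scalings) and 1 was lower (1 to 2). Bmp7, a ligand, was at 2.09, 3.54 and 8.58 FPKM in animals 32, 39 and 68, and Nog, the BMP antagonist noggin, at 7.35, 4.97 and 2.33 FPKM. For Mfrp, 5 of 8 genes on a mixed list were higher (3 to 5 over the scalings) and 0 lower. Besides frizzled-related genes, this list held Adipor1 and the chromosomal neighbour C1qtnf5, which was among the higher ones. For Enpp2, 4 of 6 genes of lysophosphatidic acid signalling and its own family were higher (2 to 4) and 0 lower, among them the receptor Lpar1, at 28.7, 38.7 and 63.7 FPKM, which oligodendrocytes also express.

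Markers of other cell types also differed between animals. Beside them, 9.77% of all genes were at least 2-fold higher in animal 68 than in animal 32, 3.05% lower and 32.9% in the order of the 10 genes. In the list for ependyma, the ciliated cells that line the ventricles, 14 of 16 genes past the filter were at least 2-fold higher in animal 68 than in animal 32 and 0 lower. The summed ependyma level was 43.9 FPKM in animal 32, 71.7 FPKM in animal 39 and 154 FPKM in animal 68, with Mcidas, a regulator of multiciliated cells, listed at 0 in all. Of 12 oligodendrocyte genes all 12 were higher, with sums of 3534, 5436 and 9554 FPKM, a cell type that makes Enpp2 too. Of 14 genes of striatal projection neurons, 8 were higher and 0 lower, with sums of 234, 216 and 397 FPKM, lowest in animal 39, and 9 in the order of the 10 genes. Adora2a, their adenosine receptor, was at 1.05, 1.35 and 11.2 FPKM. The striatal split ran from 7 to 8 higher and from 0 to 1 lower over the scalings.

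Of 11 astrocyte genes 6 were at least 2-fold higher in animal 68 (5 to 6 over the scalings) and 0 lower, with sums of 1432, 1524 and 2513 FPKM in animals 32, 39 and 68. Of 10 microglia genes 4 were higher (3 to 6) and 0 lower, with sums of 84.7, 120 and 166 FPKM. Of 12 cortical glutamatergic genes, 5 were at least 2-fold lower in animal 68 (5 to 6 over the scalings) and 1 was higher, with sums of 2597, 2517 and 1839 FPKM. Cux2, a transcription factor of upper cortical layers, was at 27.0, 16.8 and 7.24 FPKM. The higher gene was Neurod6, a neuronal transcription factor, at 47.3, 78.4 and 107 FPKM. The part of these cell types in the levels of the 10 genes was not tested.

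Vessels, stroma and blood accompany the choroid plexus epithelium. Their counts stand beside 9.77% of all genes higher and 3.05% lower, and nothing is read from counts near these shares. Of 8 vessel endothelium genes 1 was at least 2-fold higher in animal 68 than in animal 32 and 0 lower, with sums of 127, 114 and 106 FPKM in animals 32, 39 and 68. That gene was Plvap, a component of the fenestrated endothelium found in choroid plexus, at 0.942, 0.899 and 3.01 FPKM. Of 9 genes of meninges and fibroblasts, 1 was higher (0 to 1 over the scalings) and 1 lower, with sums of 41.9, 53.6 and 59.7 FPKM, while Col1a2 and Ogn were listed at 0 in all. Of 4 blood genes 0 were 2-fold apart in either direction, with sums of 639, 859 and 832 FPKM.

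**Figure D4:**
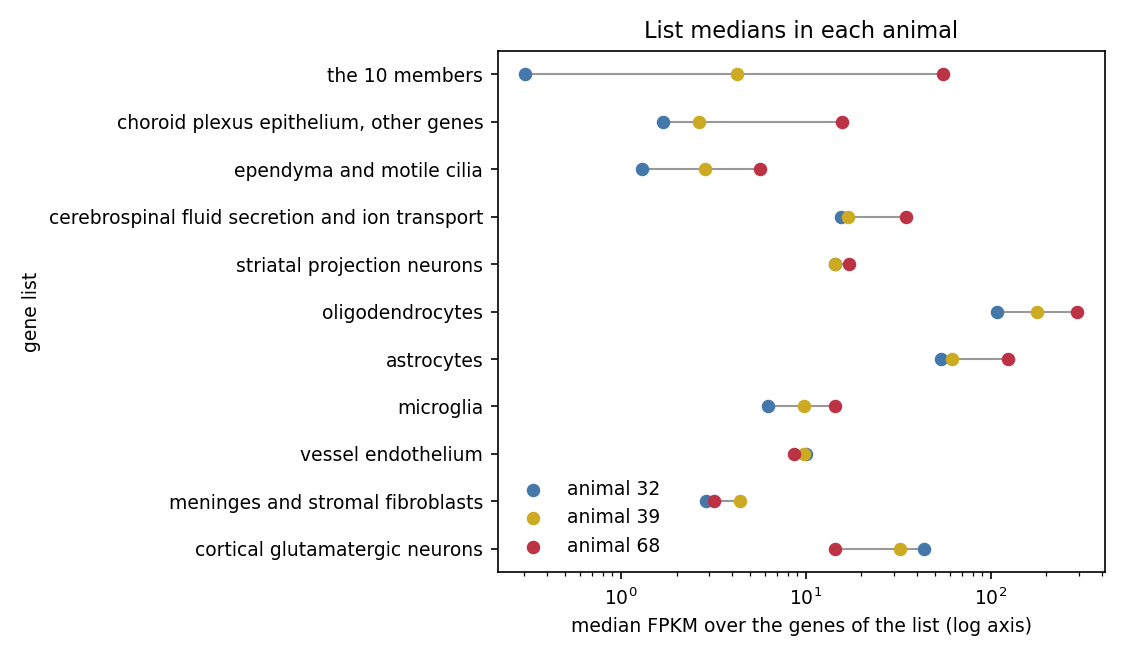
Median FPKM on a log axis of the 10 genes and of 10 gene lists in animals 32, 39 and 68. The median of the 10 genes runs from 0.304 to 55.1 FPKM, that of ependyma genes from 1.29 to 5.69 FPKM, and that of cortical glutamatergic genes is 43.7 FPKM in animal 32 and 14.3 FPKM in animal 68.

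The genes next to the 10 on the chromosome were looked up as well. Of 21 neighbours, 13 passed the filter and 2 were at least 2-fold higher in animal 68 than in animal 32, where 9.77% of all genes were. Nothing is read from this count. These were Stard13, beside Kl, at 2.32, 2.81 and 4.79 FPKM in animals 32, 39 and 68, and C1qtnf5, which starts 345 bases from Mfrp on the same strand, at 6.06, 5.67 and 20.1 FPKM. Kcne2 and Clic6 are on the same chromosome, 208356 bases apart, with 4 genes between them. Of these Smim11 was at 10.05, 11.9 and 7.94 FPKM and Rcan1 at 20.2, 22.8 and 23.2 FPKM, and the others, LOC498063 and Kcne1, were listed at 0.

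The 15 genes whose differences lay nearest to the median of the 10, by Euclidean distance over the 2 log2 differences between 3 animals, were Cldn2, Slco1a2, Tmem72, Tmem27, Lmx1a, Col8a1, Prlr, Gdf15, Igfbpl1, RGD1564074, Pon1, Col8a2, F5, Calml4 and Cfap126. Their distances ran from 0.64 to 1.96, and those of the members themselves from 0.49 to 2.96. Of the 15, 7 were on the list of other choroid plexus genes, which held 35 of the 13378 genes past the filter. Nothing is read from this overlap, because members and list were chosen with earlier results of these data known. The nearest, Cldn2, a claudin of leaky epithelia, was at 0.0282, 0.786 and 15.2 FPKM in animals 32, 39 and 68. F5, coagulation factor V, was at 0.0576, 0.750 and 32.8 FPKM. In animal 32, 6 of the 15 (Slco1a2, Tmem27, Lmx1a, Gdf15, RGD1564074 and Pon1) were listed at 0, so their differences depend on the pseudocount. With a pseudocount of 1 or a filter of 5 FPKM, 6 of the 15 remained among the nearest.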

How the data were processed

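Motor cortex mRNA of 3 animals was sequenced, 1 library each. FPKM values were computed by the authors, in part with a Perl script, per the labels. Per the submitters' processing notes, which state no roles, HISAT2 2.0.4, StringTie 1.3.0 and Rnor_6.0 were used. Neither strandedness nor the annotation release is given in the sources used here. FPKM is already divided by length and depth, so no count test was made, and with 1 group there was nothing to test between groups.

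Values were compared as log2(FPKM + 0.1), which understates changes of low genes, with a filter on a mean of at least 1 FPKM. Printed ratios use FPKM without pseudocount. Library totals were taken from values that are whole multiples of 1 fragment: 89.1, 89.0 and 89.0% of detected genes spanning up to 400 bases came within 0.02 of a whole number in animals 32, 39 and 68. Gene lengths from 100 to 30000 bases were searched with a tolerance of 0.002 fragments. The method was tested on simulated data, where it was right for each gene that a single length fitted and failed for the remaining genes. Whether the true length of any of the 10 genes is a multiple of the smallest fitting one was not tested. The fragments printed for them hold for that smallest length only. The 10 genes and the 21 gene lists were chosen with earlier results of these data known; 12 of 285 listed symbols were not found. Named from the lists were up to 4 genes with the highest mean and those that the members' roles called for, some chosen after their values were seen; a few listed genes are not reported here. Alternatives were other pseudocounts, filters, 4 scalings and leaving out each animal. Python 3.11.15, pandas 2.3.3, numpy 2.4.6, scipy 1.17.1 and matplotlib 3.10.9 were used.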

Additional observations from a re-analysis of the deposited data

How the results depend on the processing

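The median differences of the 10 genes kept their sign under each alternative run, and all 10 genes kept the order of animals 32, 39 and 68 under the 4 scalings; pseudocounts and filters could not change that order. The median log2 differences were 1.72, 3.51 and 5.31 with a pseudocount of 1 (animal 39 minus 32, 68 minus 39 and 68 minus 32), where 1 gene instead of 5 was at least 10-fold higher in animal 39 than in 32. The first and last were 3.75 and 8.28 with a pseudocount of 0.01, 3.84 and 8.38 with none, an alternative chosen after seeing the data, and 3.07 and 7.43 with quantile scaling. Quantile scaling turned the sign of the median differences of all genes, from 0.04, 0.03 and 0.07 to -0.02, -0.03 and -0.05. Leaving out each animal gave a median over genes of the mean level from 2.18 FPKM without animal 68 to 29.7 FPKM without animal 32; the count of 10 genes in order is fixed for any pair of animals once it holds for all 3. Over all genes, those at least 10-fold higher in animal 68 than in 32 numbered 22 with a pseudocount of 1 and 112 with no filter, against 65. Each of the 10 symbols had 1 gene ID, so summing IDs gave no other value. No paired analysis was possible because there is 1 group. The fragments in animal 32, 10 or fewer for 6 genes, limit the ratios taken to it.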

Other observations

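At least 10-fold higher in animal 68 than in animal 32 were 65 genes, 0.486% of all genes. Of these, 9 are among the 10 described and 17 are on the list of other choroid plexus genes, which held 35 past the filter. Another 2 are on the ependyma list, which held 16 past the filter, and 37 are on no list used here. Nothing is read from this overlap, because members and lists were chosen with earlier results of these data known. From these 37 the following were chosen after their values were seen. Glycam1, a mucin-like glycoprotein, was listed at 0 in animals 32 and 39 and was at 11.3 FPKM in animal 68. Scgb1c1, a secretoglobin, was at 0.132, 0.423 and 19.6 FPKM in animals 32, 39 and 68. Pla2g5, a secreted phospholipase, was at 0.469, 1.16 and 13.5 FPKM, and Wfikkn2, a secreted protein that binds growth factors, at 0.720, 1.66 and 13.5 FPKM. Abca4, a retinoid transporter known from photoreceptors, was at 0.211, 0.199 and 4.74 FPKM. Tp73, a transcription factor of multiciliated cells, was at 0.254, 1.23 and 3.44 FPKM.

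In the opposite direction, 7 genes were at least 10-fold lower in animal 68 than in animal 32: Grm2, Tnnt2, Wnt16, SNORA32, AABR07067469.2, LOC100363436 and Asb15. Grm2, a presynaptic glutamate receptor, was at 22.7, 16.0 and 2.05 FPKM in animals 32, 39 and 68, and Wnt16, a Wnt ligand, at 4.62, 1.71 and 0.307 FPKM.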
